A study of Mus musculus with 6 samples.

Results

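The genes described are 10 genes of cholesterol efflux and of the liver X receptors (LXR): Abca1, Abcg1, Abcg5, Abcg8, Nr1h2, Nr1h3, Mylip, Npc1l1, Scarb1 and Pltp. Every probe set that the platform annotation assigns to one of these symbols alone was taken, which gave 13 of 22626 probe sets, for 8 of the 10 genes. Nr1h2 and Npc1l1 were not analysed here. Of the 13 probe sets, 10 passed the filter on low signal and were tested, and each of the 8 genes had at least 1 of them.

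LXRα (gene Nr1h3) and LXRβ (gene Nr1h2) are nuclear receptors that bind oxidised derivatives of cholesterol. As partners of the retinoid X receptor they switch on genes that move cholesterol out of cells. In the small intestine, Abca1 loads cholesterol onto apolipoprotein A-I at the basolateral side of the enterocyte, while the half-transporters Abcg5 and Abcg8 pair to pump sterols back into the lumen. Dietary and biliary cholesterol enters the enterocyte in bile acid micelles, so its uptake depends on bile. Low cell cholesterol instead activates SREBP2, which raises cholesterol synthesis.

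Promoter sequences are shown first as a description, and any part of theirs in the signals was not tested. They come from RefSeq, build GRCm38.p6, and 8 of the 10 genes had an entry, some with more than 1 start. Abcg1 and Scarb1 had no entry, so their promoters were not searched. LXR with its partner binds a direct repeat with a 4-base spacer (DR4), written here as AGGTCA on both sides of any 4 bases. It was searched on both strands of the 250 bases upstream of each start. Up to 3 mismatches in the fixed letters were allowed, a limit chosen after up to 2 gave no match in these genes. Of the 8 genes with an entry, Abca1 alone had a match, and 18.5% of all 32851 promoters had one (2.57% with up to 2 mismatches). The LXR targets Srebf1 and Fasn, picked for their promoter letters and followed below, had a match as well. Srebf1 had none at its other listed starts. Matches at other LXR targets are not reported here. Capitals mark the matched bases, which read as the repeat on the opposite strand, and each sequence runs 5′ to 3′ along its gene.
Abca1, chr4:53159896-53160145, minus strand: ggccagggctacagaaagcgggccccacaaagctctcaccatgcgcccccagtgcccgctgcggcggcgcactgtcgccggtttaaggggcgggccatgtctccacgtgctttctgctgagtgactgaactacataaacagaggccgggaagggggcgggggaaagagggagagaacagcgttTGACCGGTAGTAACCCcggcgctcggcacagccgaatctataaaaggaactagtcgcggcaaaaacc
Srebf1, chr11:60210472-60210721, minus strand: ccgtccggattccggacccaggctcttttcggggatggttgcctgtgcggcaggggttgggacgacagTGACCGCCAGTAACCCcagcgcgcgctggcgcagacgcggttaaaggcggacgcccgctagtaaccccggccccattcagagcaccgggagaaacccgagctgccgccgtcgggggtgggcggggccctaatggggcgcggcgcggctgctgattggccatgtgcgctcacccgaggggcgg
Fasn, chr11:120824548-120824797, minus strand: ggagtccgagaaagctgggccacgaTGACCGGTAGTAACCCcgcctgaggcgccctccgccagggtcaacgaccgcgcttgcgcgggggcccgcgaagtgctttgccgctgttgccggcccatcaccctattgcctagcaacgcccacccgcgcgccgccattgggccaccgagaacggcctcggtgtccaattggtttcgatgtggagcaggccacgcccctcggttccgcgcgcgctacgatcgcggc

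The match lay 67 to 52 bases upstream of the Abca1 start, 182 to 167 upstream of this Srebf1 start and 225 to 210 upstream of the Fasn start. Abca1 and Fasn held the same 16 bases, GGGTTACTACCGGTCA on the opposite strand, and Srebf1 held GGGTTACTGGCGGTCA. The letters that the Abca1 and Srebf1 matches have in common leave only 2 of the 16 positions free and were taken after both were seen. These letters occurred in 3 of the 32851 promoters, those of Abca1, Srebf1 and Fasn. Abca1 and Srebf1 had to be among them, and Fasn was picked for its letters, so this count is not a test. Letters in a promoter are a description and do not show that a receptor was bound there in these mice.

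Abcg5 and Abcg8 lie head to head on chromosome 17, and the Abcg5 start and the nearer of 2 listed Abcg8 starts are separated by the 109 bases shown, so both genes share this stretch. Capitals mark 2 copies of AGATAA, the core that GATA factors bind, read on the opposite strand.
Abcg5 to Abcg8, chr17:84683012-84683120, plus strand: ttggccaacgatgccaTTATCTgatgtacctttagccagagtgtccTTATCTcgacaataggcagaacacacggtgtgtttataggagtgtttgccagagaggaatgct
Of all promoters, 0.186% had at least 2 copies of AGATAA on either strand in the 109 bases next to the start, and 3.98% had at least 1. The length of that window was set by this gap, and the Abcg5 start and the nearer Abcg8 start are among those counted. These shares are a description.

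Ileum was taken from chow-fed male wild type mice aged 8 to 10 months (strain background mixed, C57BL/6:129Sv) and profiled on 6 arrays in 3 groups of 2. Sham_Vehicle mice had the common bile duct freed but not tied and received vehicle by gavage. In BDL_Vehicle mice the duct was ligated, which keeps bile from the gut, and vehicle was given. BDL_GW4064 mice were ligated and dosed with GW4064, a compound that activates FXR, the receptor for bile acids, at 100 mg/kg/day. Dosing covered the 2 days ahead of surgery and the 5 that followed. Whether a group's arrays stand for separate or pooled animals is not in the labels, so the p-values speak only to how much these samples varied, and that variation could be technical. A bulk signal cannot tell fewer cells of a type from less RNA per cell. Array values carry no count depth, and their number, 2 per group, limits the precision.

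Enterocyte markers were high in all 6 arrays, with a summed signal of 19194 to 22809 over 6 of 10 listed genes. By the 18S rRNA control read at its 5′ end, the arrays fell into 2 sets, with 8.6 to 13.3 in BDL_Vehicle replicate 2 and the BDL_GW4064 arrays, and 67.3 to 88.7 in the other 3. Sham_Vehicle replicate 2 had an actin 3′ to 5′ signal ratio of 1.73, against 1.09 to 1.22 elsewhere. BDL_GW4064 replicate 2 stood apart in smooth muscle markers, at 12432 summed over 9 of 10 listed genes, against 594 to 1083 in the other 5 arrays.

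The first comparison asked how ligation changed these genes in vehicle-treated mice. Abca1, Abcg1, Abcg5, Abcg8 and Mylip all had lower signals in both BDL_Vehicle arrays than in either Sham_Vehicle array. Their mean signals after ligation ran from 28.6% of the Sham_Vehicle mean (Abca1) to 61.2% (Abcg5). The receptor gene Nr1h3 and the HDL receptor gene Scarb1 did not show a lower mean. For Pltp, probe set 1456424_s_at was also lower in both BDL_Vehicle arrays, while 1417963_at was higher in both. Each of these is a description, since 0 of the 10 tested probe sets passed the threshold after adjustment over the array, where 0.0295% of all 13575 did (limma, Benjamini-Hochberg adjusted p under 0.05).

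**Figure D1:**
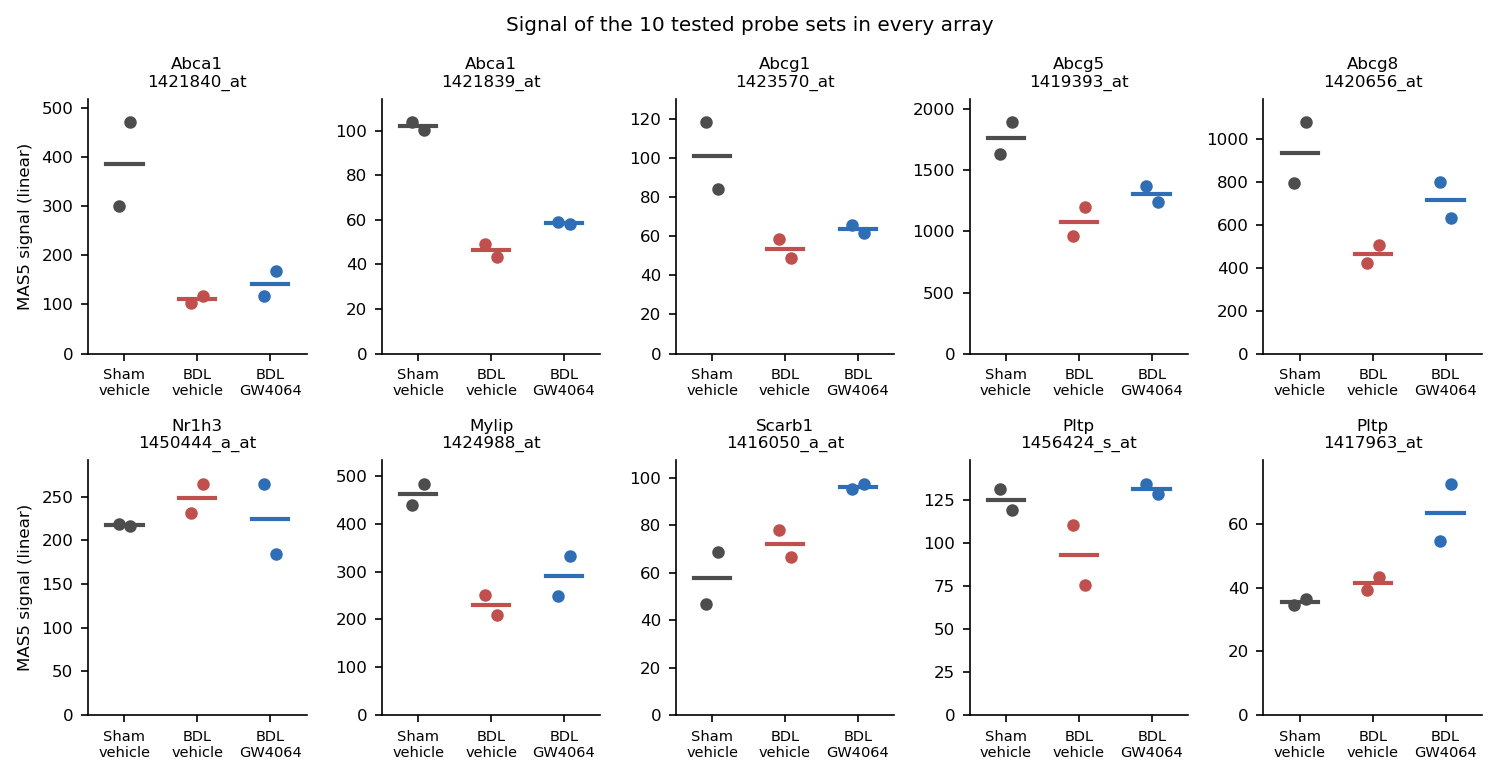
Linear MAS5 signal (vertical axes, each starting at 0) of the 10 tested probe sets in the 6 arrays; points are arrays and bars are means of the 2 arrays of a group. Abca1, Abcg1, Abcg5, Abcg8 and Mylip are lowest in BDL_Vehicle by mean and highest in Sham_Vehicle, while Nr1h3 stays between 184.8 and 265.

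Nr1h3, the receptor itself, read 218.9 and 216.7 in Sham_Vehicle, 231.3 and 264.7 in BDL_Vehicle, and 265 and 184.8 in BDL_GW4064. Both BDL_Vehicle arrays were above both Sham_Vehicle arrays, while the BDL_GW4064 arrays were the highest and the lowest of all 6. The log2 fold change after ligation was 0.18 ± 0.20 (SE), with a 95% interval from -0.28 to 0.64 (limma adjusted p = 0.868).

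Abca1 encodes the transporter that starts HDL formation. Its brightest probe set, 1421840_at, read 299.8 and 471.9 in Sham_Vehicle, 103.9 and 116.7 in BDL_Vehicle, and 116.3 and 167.6 in BDL_GW4064. The Sham_Vehicle arrays were the 2 highest, and neither ligated group overlapped them. From a Sham_Vehicle mean of 386 ± 122 to a BDL_Vehicle mean of 110.3 ± 9.05 (SD, n = 2 arrays each), it was 3.33-fold lower on the log2(signal + 4) scale. The log2 fold change was -1.74 ± 0.26 (SE, limma adjusted p = 0.2), and this probe set ranked 12 of 13575 by p. The adjusted p ranged from 0.0955 to 0.983 over the alternatives tried, and it was highest without Sham_Vehicle replicate 2, where the log2 fold change was -1.41.

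The other Abca1 probe sets had the same order of groups. Probe set 1421839_at read 103.8 and 100.4 in Sham_Vehicle, 49.3 and 43.1 in BDL_Vehicle, and 58.9 and 58.2 in BDL_GW4064, and the 3 groups did not overlap. Its log2 fold change after ligation was -1.08 ± 0.21 (SE, limma adjusted p = 0.437). Probe set 1450392_at was below the filter, with 52.4 and 41.6 in Sham_Vehicle, 15.5 and 23.7 in BDL_Vehicle, and 22.7 and 24.1 in BDL_GW4064. Both ligated groups lay under the signal at the filter, 37.1, so its fold is only bounded, at least 1.23-fold lower after ligation, and it was not tested.

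Abcg1, which passes cholesterol to HDL particles, read 118.4 and 84 in Sham_Vehicle, 58.6 and 48.8 in BDL_Vehicle, and 65.5 and 61.5 in BDL_GW4064. The groups did not overlap in either comparison with BDL_Vehicle. Its log2 fold change after ligation was -0.85 ± 0.24 (SE, limma adjusted p = 0.736), from a mean of 101.2 ± 24.3 to 53.7 ± 6.93 (SD, n = 2 arrays each).

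The half-transporters Abcg5 and Abcg8, which share the 109 bases printed above, were each lowest in the BDL_Vehicle arrays. Abcg5 read 1635.7 and 1896.8 in Sham_Vehicle, 963.1 and 1199.4 in BDL_Vehicle, and 1374.3 and 1243.4 in BDL_GW4064. All 3 groups were apart, with the BDL_GW4064 arrays in between. The log2 fold change after ligation was -0.71 ± 0.15 (SE, limma adjusted p = 0.475), or -0.87 once array set was fitted as well.

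Abcg8 read 794.2 and 1077.8 in Sham_Vehicle, 423.4 and 506 in BDL_Vehicle, and 797 and 631.4 in BDL_GW4064. Here BDL_GW4064 replicate 1 reached the lower Sham_Vehicle array, while both BDL_Vehicle arrays stayed below all others. The mean went from 936 ± 201 to 464.7 ± 58.4 (SD, n = 2 arrays each), 1.99-fold lower after ligation. The log2 fold change was -0.99 ± 0.19 (SE, limma adjusted p = 0.443).

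Mylip encodes IDOL, a ubiquitin ligase induced by LXR that sends the LDL receptor for degradation. It read 439.3 and 483.9 in Sham_Vehicle, 250.6 and 209.1 in BDL_Vehicle, and 247.8 and 333 in BDL_GW4064. The Sham_Vehicle arrays were clear of both ligated groups, which overlapped each other. The log2 fold change after ligation was -0.998 ± 0.19 (SE, limma adjusted p = 0.437), 2-fold lower from a mean of 461.6 ± 31.5 to 229.9 ± 29.3 (SD, n = 2 arrays each).

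Scarb1 encodes SR-BI, a receptor that takes up cholesterol esters from HDL. Its probe set 1416050_a_at read 47 and 68.9 in Sham_Vehicle, 77.9 and 66.8 in BDL_Vehicle, and 95.2 and 97.7 in BDL_GW4064. The vehicle groups overlapped, and the BDL_GW4064 arrays were the 2 highest. Its log2 fold change after ligation was 0.32 ± 0.24 (SE, limma adjusted p = 0.816). Leaving out Sham_Vehicle replicate 1 gave 0.06, and leaving out replicate 2 of that group gave 0.58. Its other probe sets, 1455820_x_at and 1437378_x_at, read at most 22.2 in any array and were not tested.

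Pltp, which transfers phospholipid between lipoproteins, was read by 2 probe sets whose values after ligation differed in sign. Probe set 1456424_s_at read 131.2 and 119 in Sham_Vehicle, 110.5 and 75.5 in BDL_Vehicle, and 134.5 and 128.4 in BDL_GW4064, with both BDL_Vehicle arrays lowest. Probe set 1417963_at read 34.5 and 36.3, then 39.3 and 43.5, then 54.5 and 72.7 in the same order of groups, so that every group lay above the one before. The log2 fold changes after ligation were -0.43 ± 0.22 and 0.20 ± 0.26 (SE), with limma adjusted p of 0.751 and 0.885. Fitted with a term for array set, which leaves BDL_Vehicle replicate 1 to carry the comparison, the first was -0.17, and it was -0.70 without that array.

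Counted over the 10 tested probe sets, 6 were lower at an unadjusted p under 0.05 after ligation and 0 were higher. Over all 13575 probe sets these shares were 2.98% and 3.39%. In either direction 6.37% of all passed that p. Without Sham_Vehicle replicate 1, 5 of the 10 passed it (9.52% of all in that fit), without Sham_Vehicle replicate 2, 6 did (3.35%), without BDL_Vehicle replicate 1, 7 did (10.1%), and without BDL_Vehicle replicate 2, 6 did (3.68%). With array set fitted, 5 did, beside 3.7% of all. Arrays did not overlap, with lower values after ligation, for 7 of the 10 (18.7% of all tested), and with higher values for 2 (18.2%). The fitted value was below 0 for 7 of the 10 (51.7%). The median log2 fold change over the 8 genes was -0.78, beside -0.01 over all 7919 genes tested. Within the array set of both Sham_Vehicle arrays and BDL_Vehicle replicate 1, the Abca1 probe sets had -1.82 and -0.99 and Abcg1 -0.73. Abcg5 had -0.87, Abcg8 -1.12 and Mylip -0.87 (limma, with a term for array set). These values rest on 1 BDL_Vehicle array.

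**Figure D2:**
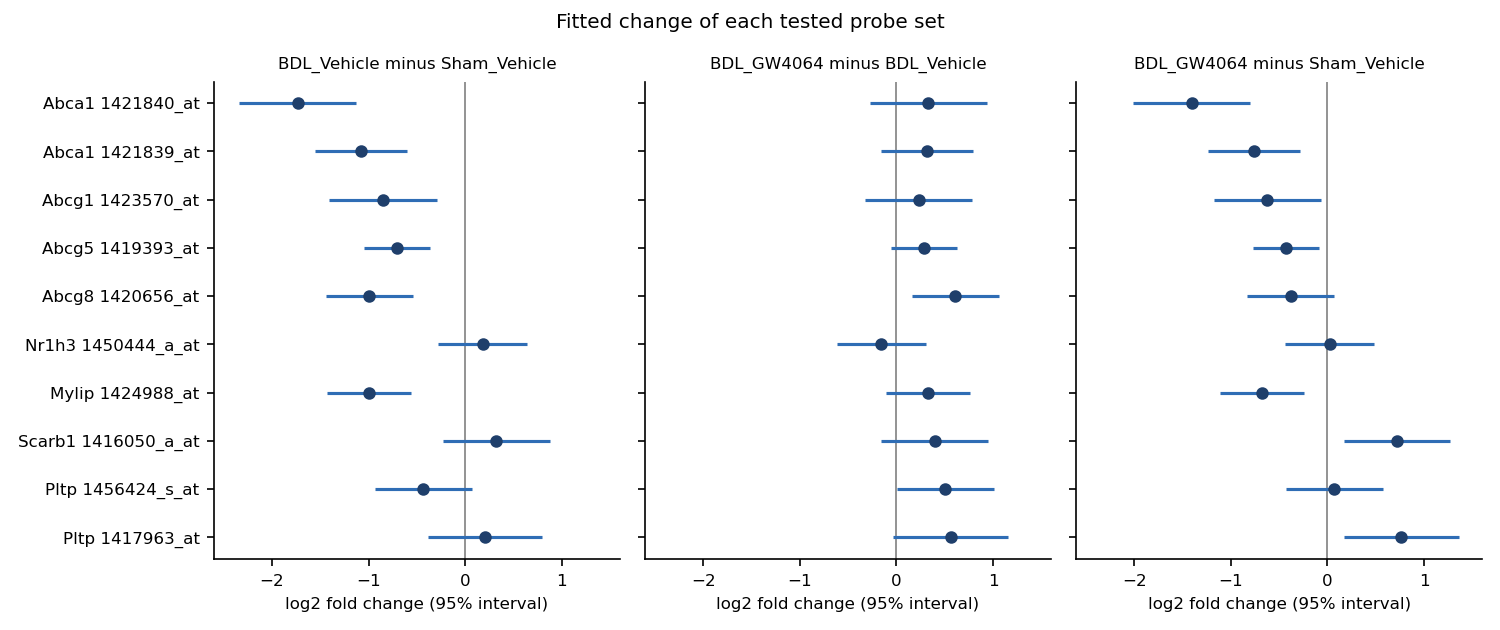
Fitted log2 fold change (points) of the 10 tested probe sets with 95% limma intervals (lines) in the 3 comparisons. After ligation the intervals of Abca1, Abcg1, Abcg5, Abcg8 and Mylip lie below 0, from -1.74 for Abca1 to -0.71 for Abcg5 by point estimate, before any adjustment for the number of probe sets tested.

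Next, the same genes were compared in ligated mice with and without GW4064. This comparison shares the BDL_Vehicle arrays with the first, so opposite signs in both are linked through them. Mean values of 9 of the 10 tested probe sets were higher with GW4064 (47.9% of all tested), with Nr1h3 at -0.16 ± 0.20 (SE), or 0.10 without BDL_GW4064 replicate 2. Of the 10, 0 passed after adjustment, where 0.0516% of all did, and 2 were higher at an unadjusted p under 0.05 (Abcg8 and Pltp 1456424_s_at), where 4.43% of all were, while 0 were lower (3.06%). In either direction (7.48% of all), that count of 2 was 1 without BDL_Vehicle replicate 1 (4.52% of all in that fit), 1 without BDL_GW4064 replicate 2 (6.81%) and 1 with array set fitted (4.51%). It was 0 with arrays centred on their medians, beside 7.86% of all. Arrays did not overlap for 7 of the 10 with higher values (17.4% of all tested) and for 0 with lower values (18.1%). The median over the 8 genes was 0.33, beside 0.00 over all genes tested.

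Abcg8 had the largest log2 fold change of the 10, 0.61 ± 0.19 (SE, limma adjusted p = 0.471), and its partner Abcg5 had 0.28 ± 0.15 (limma adjusted p = 0.762). Both arrays with GW4064 lay above both BDL_Vehicle arrays for these genes. The Abca1 probe sets had 0.33 ± 0.26 and 0.32 ± 0.21 (SE), and the first was 0.08 without BDL_GW4064 replicate 2. Mylip had 0.32 ± 0.19 (limma adjusted p = 0.795) and 0.11 without that array. Abcg1 had 0.23 ± 0.24 (limma adjusted p = 0.918) and 0.11 without BDL_Vehicle replicate 2.

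Pltp had 0.51 ± 0.22 and 0.56 ± 0.26 on its 2 probe sets (SE, limma adjusted p of 0.660 and 0.690). Without BDL_Vehicle replicate 2 the first was 0.24, and without BDL_GW4064 replicate 2 the other was 0.37. Scarb1 had 0.40 ± 0.24 (limma adjusted p = 0.798), and for both genes the arrays of the groups did not overlap. Within the array set of BDL_Vehicle replicate 2 and both BDL_GW4064 arrays, the Abca1 probe sets had 0.25 and 0.41, Abcg1 0.35, Abcg8 0.48, Abcg5 0.12, Nr1h3 -0.25, Mylip 0.45, Scarb1 0.50 and the Pltp probe sets 0.77 and 0.50.

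Marker lists of several other cell types had higher summed signals in the BDL_GW4064 arrays. Macrophage and dendritic cell markers, cells in which Abca1, Abcg1 and Pltp are also expressed, had a summed signal of 1742 and 1916 in Sham_Vehicle, 2672 and 1993 in BDL_Vehicle, and 3201 and 2948 in BDL_GW4064, over 13 of 13 listed genes. Cd163 was below 37.1 in every array. After ligation 8 of 12 tested markers of this list were higher, beside 3790 of all 7919 genes tested. With GW4064 10 of 12 were, beside 3991 of 7919. Fibroblast and matrix markers summed to 1352 and 2177, then 1338 and 1695, then 3847 and 4824 in the same order, over 11 of 11 genes. Mesenteric adipose markers summed to 758 and 1524, then 580 and 1111, then 1211 and 2414, over 8 of 10 genes, with Lep below 37.1 in every array. The part of these cells in the values after ligation or with GW4064 was not tested. Summed enterocyte markers ranged from 86.5% to 103% of their Sham_Vehicle mean. Of the 6 tested, 1 was lower at an unadjusted p under 0.05 after ligation (limma), beside 242 of all 7919 genes. The 8 cholesterol genes summed to 54.8% and 61.4% of their Sham_Vehicle mean in BDL_Vehicle and to 76.4% and 70.3% in BDL_GW4064. Bright genes weigh most in such a sum, here Abcg5 and Abcg8, while Nr1h3 and Scarb1 had higher means after ligation.

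**Figure D3:**
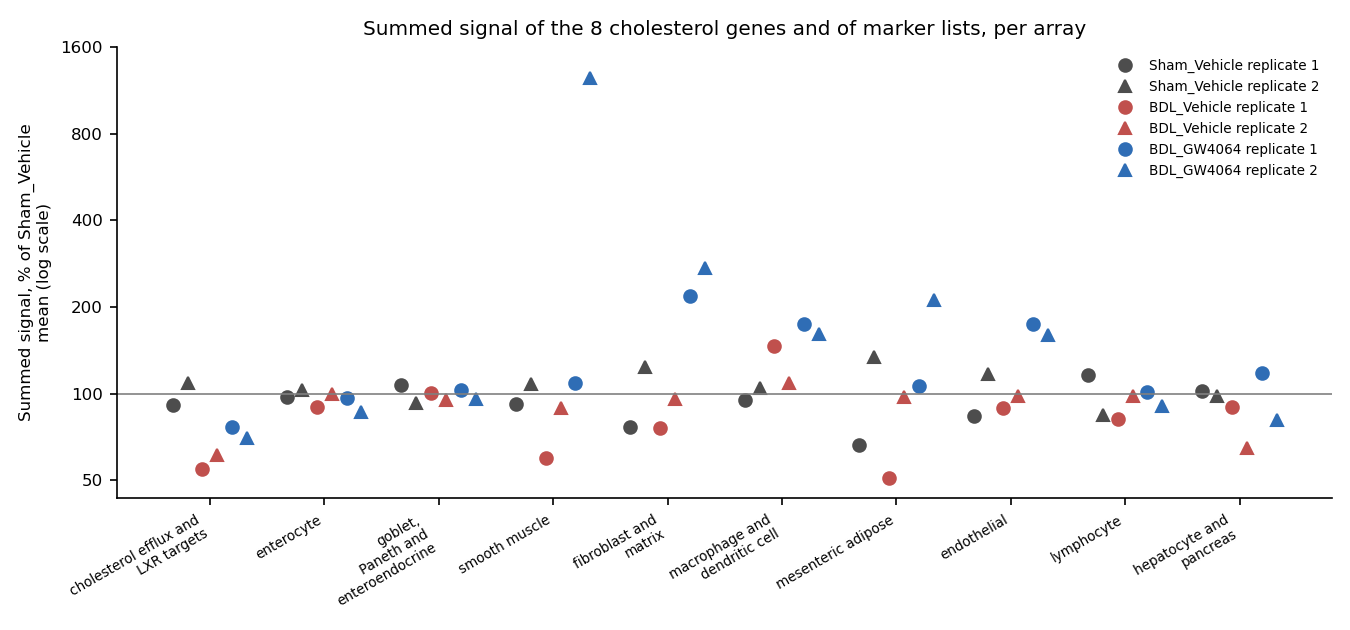
Summed signal of the 8 cholesterol genes and of marker lists in each array, as a percentage of the Sham_Vehicle mean on a log axis; circles are replicate 1 and triangles replicate 2. The sum of the cholesterol genes is below 100% in all 4 ligated arrays, that of enterocyte markers lies between 86.5% and 103%, and smooth muscle markers reach 1248% in BDL_GW4064 replicate 2.

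The third comparison set BDL_GW4064 against Sham_Vehicle, so it shares arrays with each of the others. Here 0 of 10 probe sets passed after adjustment, where 0.0368% of all did. At an unadjusted p under 0.05, 5 were lower (8.67% of all tested) and 2 higher (7.31%). In either direction, 4 of the 10 passed that p without BDL_GW4064 replicate 1 (10.8% of all in that fit), 3 without BDL_GW4064 replicate 2 (11.6%) and 2 with array set fitted (3.21%), in place of 7 (16% of all). Arrays did not overlap for 5 probe sets with lower values (26.3%) and 2 with higher values (23.8%), and 6 of 10 fitted values were below 0 (49.8%). Both tested Abca1 probe sets had the lowest values relative to sham, with log2 fold changes of -1.40 ± 0.26 and -0.76 ± 0.21 (SE, limma adjusted p of 0.163 and 0.198). Mylip had -0.67 ± 0.19, Abcg1 -0.62 ± 0.24, Abcg5 -0.43 ± 0.15 and Abcg8 -0.38 ± 0.19 (SE, limma adjusted p between 0.202 and 0.378). Abcg8 had -0.16 without Sham_Vehicle replicate 2 and -0.21 without BDL_GW4064 replicate 2, and Abcg1 had -0.38 without Sham_Vehicle replicate 1. As a share of the Sham_Vehicle mean, signals with GW4064 were 36.8% for Abca1 (1421840_at), 62.7% for Abcg1, 62.9% for Mylip, 74.1% for Abcg5 and 76.3% for Abcg8. The difference between these genes was not tested.

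Scarb1 and the dimmer Pltp probe set were higher than in Sham_Vehicle. Scarb1 had 0.72 ± 0.24 and Pltp 1417963_at 0.77 ± 0.26 (SE, limma adjusted p of 0.231 and 0.235), and the latter was at least 1.63-fold higher, since both Sham_Vehicle arrays were under 37.1. Scarb1 was 0.46 without Sham_Vehicle replicate 1. The brighter Pltp probe set had 0.07 ± 0.22 and overlapped. Nr1h3 had 0.02 ± 0.20 (SE) and overlapped, and its sign turned to -0.23 without BDL_GW4064 replicate 1. Sham_Vehicle and BDL_GW4064 fell in different array sets, so no within-set value exists here. A fit with a term for array set reached them through BDL_Vehicle and gave -1.57 and -0.58 for the Abca1 probe sets, -0.74 for Abcg5, -0.64 for Abcg8, -0.42 for Mylip and -0.38 for Abcg1. It gave 0.93 for Scarb1, 0.60 for the brighter Pltp probe set, 0.63 for the other and -0.17 for Nr1h3. The median over the 8 genes was -0.41, beside 0.01 over all genes tested, and it was -0.24 without Sham_Vehicle replicate 2.

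Likeness across arrays was described by the root mean square difference of log2 signals over the 6 arrays, each gene centred on its own mean. The genes nearest to Abca1 were Sgk3 at 0.25, Rab30 at 0.28 and Sst at 0.33, and Mylip, at 0.40, was number 6 of 7918 genes. For Abcg5 they were Rsrp1 at 0.06, then Srebf1 and Ercc8 at 0.10 each. For Abcg8 they were Gng11 at 0.10, the fatty acid and lipid receptor gene Cd36 at 0.12, and Matk at 0.15. Cd36 is also in the mesenteric adipose list. Abcg8 was number 52 from Abcg5, at 0.17, and Scarb1 was number 7372 from Abca1, at 1.00. All distances share the same 6 arrays, and a gene that varies little is close to many others.

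Srebf1, the LXR target that encodes the lipogenic factor SREBP1, read 320.1 and 385.5 in Sham_Vehicle, 218 and 269.4 in BDL_Vehicle, and 323.6 and 279.4 in BDL_GW4064. Its log2 fold change was -0.53 ± 0.18 after ligation and 0.31 ± 0.18 with GW4064 (SE, limma adjusted p of 0.751 and 0.795). Fasn, fatty acid synthase, whose promoter holds the same 16 bases as that of Abca1, had the opposite sign. Any part of these bases in the signals was not tested. Fasn read 220.2 and 223.6 in Sham_Vehicle, 324.9 and 368 in BDL_Vehicle, and 216.1 and 318.5 in BDL_GW4064. Its log2 fold change after ligation was 0.63 ± 0.20 (SE, limma adjusted p = 0.751).

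Other LXR targets were counted from a list of 21, of which 15 had a tested probe set. After ligation 10 were lower and 5 higher (4129 and 3790 of all 7919 genes tested), with a median of -0.22, and 0 passed in either direction. The stearoyl-CoA desaturase genes Scd2 (-1.34 ± 0.25, SE) and Scd1 (-1.39 ± 0.36, SE) had the smallest p of the list (limma adjusted p of 0.437 and 0.680). Scd1 read 266.1 and 195.6 in Sham_Vehicle, 66.1 and 108.1 in BDL_Vehicle, and 90.8 and 184.9 in BDL_GW4064. The list also held Tnfaip3, a brake on NF-kB signalling, at 0.66 ± 0.21 (SE). With GW4064, 12 of the 15 were higher and 3 lower (3991 and 3928 of all 7919), with a median of 0.31 and 0 past the threshold. The lipoprotein lipase gene Lpl had 1.21 ± 0.39, apolipoprotein gene Apoe 0.73 ± 0.24 and the phagocytic receptor gene Mertk 0.69 ± 0.21 (SE, limma adjusted p of 0.477, 0.495 and 0.443). Lpl and Apoe are also expressed by adipocytes and macrophages, and the part of those cells in these values was not tested.

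**Figure D4:**
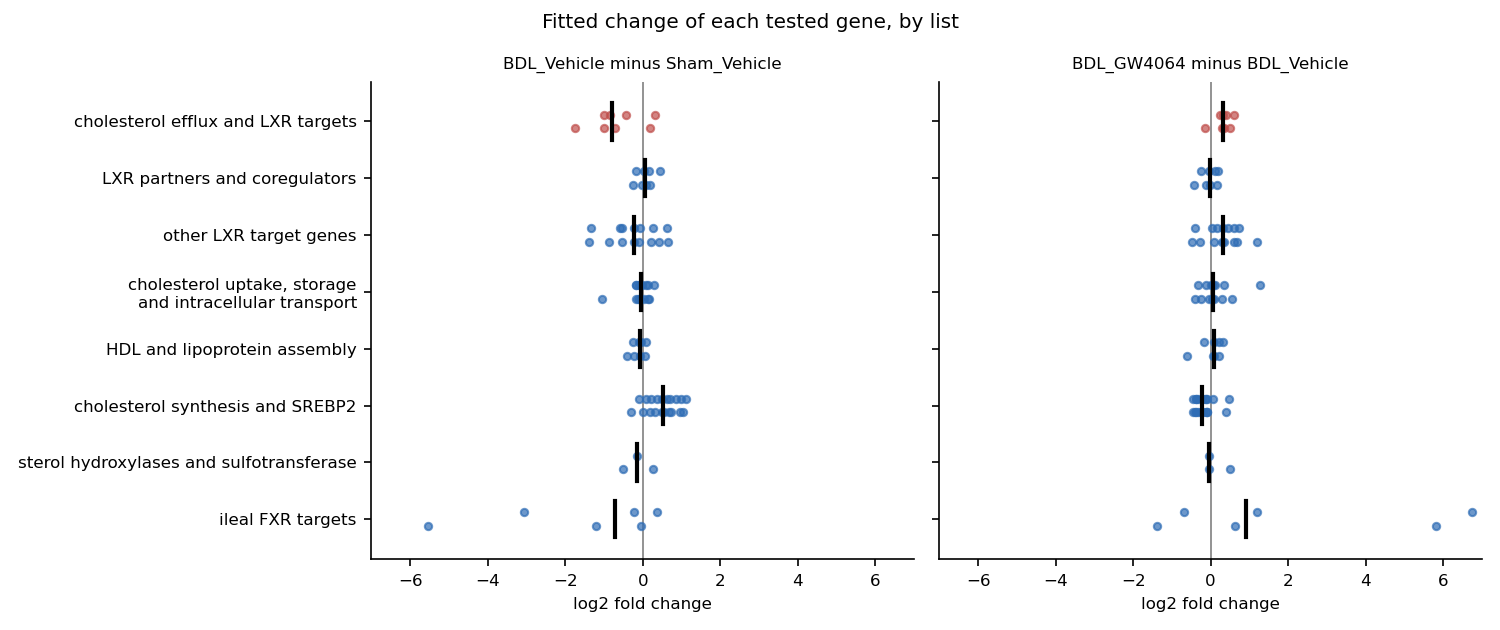
Fitted log2 fold change of each tested gene (points) by list after ligation and with GW4064, with the list median as a black bar. The cholesterol efflux and LXR target genes have a median of -0.78 after ligation, while cholesterol synthesis genes have a median of 0.53.

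The partners and coregulators of LXR were higher in 5 of 8 tested genes after ligation, beside 3790 of all 7919. Their median was 0.06, with 0 past the threshold. Rxra, the retinoid X receptor gene, had 0.17 ± 0.14 after ligation and -0.26 ± 0.14 with GW4064 (SE). Genes of cholesterol uptake, storage and intracellular transport had a median of -0.04 after ligation. Of these, 8 of 14 were lower, beside 4129 of all 7919, and 0 passed. Cd36 lay farthest from 0 among the 14, -1.06 ± 0.21 (SE, limma adjusted p = 0.448), and read 247.9 and 349.4 in Sham_Vehicle against 121.9 and 158.8 in BDL_Vehicle. With GW4064 Cd36 had 0.55 ± 0.21 (SE), at 203.9 and 208. Cd36 is also one of the mesenteric adipose markers, and the part of adipocytes in its values was not tested. The cytosolic sterol carrier gene Stard4 had -0.13 ± 0.13 after ligation and -0.40 ± 0.13 with GW4064 (SE). HDL and lipoprotein assembly genes were lower in 6 of 8 after ligation, beside 4129 of all 7919. Their median was -0.08, with 0 past the threshold, and Apoc3 had -0.39 ± 0.21 (SE).

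Sterol 27-hydroxylase, Cyp27a1, makes an oxysterol that binds LXR. It read 385.1 and 459.9 in Sham_Vehicle, 301 and 288.6 in BDL_Vehicle, and 382.6 and 463.7 in BDL_GW4064. BDL_Vehicle was below both other groups, which overlapped. The log2 fold change was -0.51 ± 0.16 after ligation and 0.51 ± 0.16 with GW4064 (SE, limma adjusted p of 0.751 and 0.473). It was 1 of 3 tested genes in a list of 7 sterol hydroxylases and related enzymes, of which 0 passed.

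The median of the cholesterol synthesis genes had the opposite sign to that of the 8 efflux and LXR target genes, after ligation and with GW4064. Both comparisons share the BDL_Vehicle arrays, so their signs are linked. After ligation 17 of 20 tested genes of the synthesis list were higher (3790 of all 7919), with a median of 0.53. Sqle, which encodes squalene epoxidase, had 1.12 ± 0.17 (SE, limma adjusted p = 0.2). With GW4064 17 of 20 were lower (3928 of all 7919), with a median of -0.21, while 0 passed in either comparison. Insig2, a protein that holds SREBP in the endoplasmic reticulum, had 0.48 ± 0.13 with GW4064 (SE, limma adjusted p = 0.386), the smallest p of the list there. Among 6 tested FXR genes of the ileum, Fgf15 and Fabp6 fell after ligation and Fgf15, Nr0b2 and Fabp6 rose with GW4064 (limma adjusted p between 7.93e-05 and 0.0194).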

How the data were processed

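Total RNA of ileum was hybridised to single-colour Affymetrix arrays. The deposited values are intensity values on a linear scale, named MAS5 signals per the submitters' processing notes. The MAS5 version, settings and detection calls are not given in the sources used here. All 6 arrays had a mean of 200.1 after trimming 2% from either end, so values came scaled to a common level.

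Signals were analysed as log2(signal + 4). Folds on this scale understate changes of dim genes. Of 22690 probe sets, 64 controls and the lowest 40% by mean log2 signal were left out, leaving 13575. The signal at that filter, 37.1, served as the floor for dim groups. Of the non-control probe sets 20380 had 1 gene, 691 several and 1555 none.

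Groups were compared with limma 3.58.1 (R 4.3.3), with 1 mean per group, a variance prior that follows signal, and Benjamini-Hochberg adjustment over all tested probe sets at 0.05. It was run on data simulated from its own variance prior with independent noise, which cannot show how it performs on these arrays. A list takes each gene by its brightest tested probe set. Genes described are the 10 chosen ones, up to 4 per list and comparison with the smallest p, those past the threshold, and the 3 nearest to a gene by signal profile. Srebf1 and Fasn were followed for their promoter letters, seen after the values. The genes, lists and alternatives were chosen with earlier results of these data known. Alternatives were pseudocounts of 1 and 16, other normalisation, filters and priors, only the 4 arrays compared, replicate number or array set as a term, and each array left out.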

Additional observations from a re-analysis of the deposited data

How the results depend on the processing

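The count of tested probe sets past the threshold stayed 0 in each comparison under every alternative run. Of 30 pairs of a probe set and a comparison, 28 kept their direction. Nr1h3 turned sign. Its log2 fold change with GW4064 ranged from -0.41 to 0.10 with an array left out. Against Sham_Vehicle, the BDL_GW4064 value ranged from -0.23 to 0.28 with an array left out, and a term for array set gave -0.17. The cause was not tested. The median over the 8 genes for BDL_GW4064 against Sham_Vehicle ranged from -0.48 to -0.24 with an array left out. Over all tested probe sets, deviations of same-numbered arrays correlated at 0.04, 0.09 and -0.12, so no common pairing was seen. A pairing that acts on single genes was not tested. With the replicate number as a block, the median stayed -0.78 after ligation, 0.33 with GW4064 and -0.41 for both together, and 0 probe sets of these genes passed in each. Over all probe sets the block gave 2, 4 and 0 calls in place of 4, 7 and 5. Exchanging the numbers of BDL_GW4064, an alternative added after the data were seen, gave 7 calls in the GW4064 comparison. Signals near 37.1, as for Pltp 1417963_at and Abca1 1450392_at, limit what can be said of those probe sets.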
